A study of Mus musculus with 8 samples.

Results

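Red blood cells left in the vessels of a tissue bring their RNA into its libraries. In left ventricles of angiotensin II (angII) treated mice, 6 genes whose messages red cells carry were followed: the adult alpha globins Hba-a1 and Hba-a2, the adult beta globins Hbb-bs and Hbb-bt, the erythroid haem enzyme Alas2 and the red cell anion exchanger Slc4a1. They were taken by their symbols from the table of raw counts, which holds 46040 genes, and all 6 had a row. The rule that chose them used no measured value, but earlier results of these data were known at the time.

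The series held 8 RNA-seq libraries of left ventricles from mice given angII at 0.1 mg/kg/h by a subcutaneous minipump, taken from the surviving mice at day 14. The names of all 8 libraries carry the word cardiomyo, whereas the paper describes RNA of left ventricles after angII. They are read here as left ventricle tissue, and whether isolated cardiomyocytes were used instead was not tested. One group, 4 libraries, lacked the tyrosine kinase domain of VEGFR-1, the receptor encoded by Flt1 (VEGFR-1 TK-/-), and the other 4 came from littermate controls. All mice were male, on a C57BL/6 background and 5 to 7 months old, and the kinase domain was missing from every cell type. Every mouse had received angII, so no library gives the level of these genes without it. The mice had been perfused with buffered saline after euthanasia, a step that washes out blood.

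The labels disagreed on the genotype. Libraries were grouped by their genotype tag, with the names of the libraries on the same side, whereas the sample titles give every library the opposite genotype. The groups are therefore called control-tagged and TK-tagged, and each difference between them changes sign if the titles are right. Flt1 itself lay between 56.9 and 84.3 normalised CPM (counts scaled to the size of the library) in the control-tagged libraries and between 143.5 and 170 in the TK-tagged ones (log2 fold change 1.19, false discovery rate (FDR) 0.00808, edgeR quasi-likelihood test). Since the count covers all exons of Flt1, it cannot tell which set of labels is right. Total counts were 11449137 to 16239670 per library.

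Haemoglobin is built from a pair of alpha and a pair of beta chains, each holding a haem group that binds oxygen. Erythroid precursors in the bone marrow make the globin messages in great excess, lose their nucleus and enter the blood as reticulocytes, which still carry these messages. Mature red cells no longer transcribe genes, and cardiac muscle uses a separate haem protein, myoglobin (Mb), as its own oxygen store.

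On the mouse genome build GRCm38 the alpha pair lay on chromosome 11, Hba-a1 at chr11:32283511-32284465 and Hba-a2 at chr11:32296489-32297298, both on the plus strand. The beta pair lay on the minus strand of chromosome 7, Hbb-bs at chr7:103826534-103828096 and Hbb-bt at chr7:103812524-103813996. The first transcript of each globin gene had 3 exons. Alas2, which encodes the erythroid form of the first enzyme of haem synthesis, lay at chrX:150547375-150570638 on the plus strand with 11 exons. Slc4a1, which encodes band 3, the chloride and bicarbonate exchanger of the red cell membrane, lay at chr11:102348824-102366203 on the minus strand with 20 exons. Coordinates and exons are those of GENCODE M21.

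The promoters of 5 of the genes are held by RefSeq on GRCm38.p6, and Slc4a1 had no entry. The 120 bases before the RefSeq start are shown for 4 of them. Whether these sequences bear on how the genes varied between the libraries was not tested. Capitals mark the motifs searched for on both strands: the TATA-type box ATATAA, the CCAAT box, the CACCC box bound by Klf factors, and GATAA, the core bound by Gata factors. On the opposite strand the last of these reads TTATC, the CACCC box reads GGGTG and the CCAAT box ATTGG. The Hba-a2 window spans chr11:32296372-32296491, Hbb-bs chr7:103827929-103828048, Hbb-bt chr7:103813924-103814043 and Alas2 chrX:150547297-150547416, each written in the direction of transcription. The GENCODE gene models begin upstream of the RefSeq starts, so the windows overlap them.
Hba-a2: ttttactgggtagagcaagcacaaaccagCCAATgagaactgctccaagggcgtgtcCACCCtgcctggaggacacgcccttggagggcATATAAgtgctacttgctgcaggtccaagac
Hbb-bs: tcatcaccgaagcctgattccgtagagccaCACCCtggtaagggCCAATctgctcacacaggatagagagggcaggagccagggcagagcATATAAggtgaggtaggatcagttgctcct
Hbb-bt: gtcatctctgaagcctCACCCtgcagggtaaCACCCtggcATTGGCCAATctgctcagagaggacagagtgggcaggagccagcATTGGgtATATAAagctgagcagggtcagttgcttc
Alas2: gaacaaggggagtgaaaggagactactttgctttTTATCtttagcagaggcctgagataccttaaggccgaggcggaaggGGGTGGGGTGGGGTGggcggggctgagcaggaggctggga

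All 4 globin promoters carried the TATA-type box, the CCAAT box and the CACCC box on the strand of the gene. The TATA-type box began 28 to 31 bases before the start, at 28 in Hba-a1 and 31 in Hba-a2. Of 32851 promoter windows of the same length, 4.47% held the TATA-type box, 21.3% the CCAAT box, 31.7% the CACCC box and 10.5% the Gata core on either strand, and 94 windows (0.286%) held the first 3 together. The Alas2 window held neither of the first 2, and had 3 CACCC boxes and 1 Gata core on the opposite strand. The Hba-a1 promoter is not printed because it shared an unbroken run of 117 bases with that of Hba-a2.

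The transcripts within each globin pair were nearly alike as well, which limits how far their counts can be split. Hba-a1 and Hba-a2 were identical at 99.8% of 538 aligned bases, and 339 of the 600 stretches of 100 bases in Hba-a1 occurred unchanged in Hba-a2. Hbb-bs and Hbb-bt were identical at 92.7% of 626 aligned bases, with 331 of the 529 stretches of Hbb-bs found in Hbb-bt. How reads that fit both copies were counted is not given in the sources used here. If such reads were assigned to a single copy, the sum of each pair is firmer than either member. If they were left out, the sum lacks them as well. Slc4a1 shared no stretch of 100 bases with another gene. The exons of Alas2 shared 311 bases with Apex2, a DNA repair gene on the opposite strand, and reads there can be told apart only by strand. The library kit keeps strand per the study's methods, but whether the counting used it is not given in the sources used here. Apex2 lay between 4.51 and 12.6 normalised CPM (log2 fold change 0.54, SE 0.208, FDR 0.506).

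Globin messages were a small part of every ventricle library. The 4 globin genes together took 0.0292% (95% Wilson binomial interval 0.0283 to 0.0301, counting error only) of all counts in control-tagged library 1. The shares were 0.0819% (0.0803 to 0.0835) in library 2, 0.0666% (0.0654 to 0.0679) in library 3 and 0.04% (0.0389 to 0.0412) in library 4. The TK-tagged libraries 1 to 4 gave 0.0352%, 0.0565%, 0.0384% and 0.0383%. Control-tagged libraries 2 and 3 and TK-tagged library 2 were the 3 highest, and the lowest library was control-tagged as well. The summed level was 538.7 ± 226 normalised CPM in the control-tagged and 424.5 ± 103 in the TK-tagged group (SD, n = 4 each), with a 2.48-fold range within the first and 1.68-fold within the second. In bulk tissue, more red cells and more globin RNA per cell cannot be told apart.

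Hbb-bs was the most abundant of the 6 genes in every library. Its normalised CPM was 164, 425, 348 and 232 in control-tagged libraries 1 to 4 and 208, 314, 227 and 205 in TK-tagged libraries 1 to 4. The groups overlapped, and the 4 TK-tagged values lay inside the range of the controls. The log2 fold change, TK-tagged against control-tagged, was -0.29 (SE 0.254, 95% interval -0.85 to 0.26, FDR 0.759, edgeR quasi-likelihood test). Hbb-bt, the minor adult beta globin, stood at 17.4, 47.6, 44.8 and 22.5 in the controls and at 14.7, 38.4, 22.4 and 21.4 in the TK-tagged libraries. The same 3 libraries were highest, and only TK-tagged library 1 fell outside the control range. Its log2 fold change was -0.45 (SE 0.337, interval -1.19 to 0.28, FDR 0.721). Without control-tagged library 2 the fold changes were -0.06 for Hbb-bs and -0.23 for Hbb-bt.

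Hba-a1 was the more abundant alpha globin. It measured 84.4, 204, 236 and 113.5 normalised CPM in the control-tagged libraries and 90.4, 169, 119 and 113.8 in the TK-tagged ones. Here control-tagged library 3 was the highest rather than library 2, and the groups overlapped (log2 fold change -0.37, SE 0.291, interval -1.01 to 0.26, FDR 0.732). Hba-a2 measured 29.6, 57.4, 98.5 and 29.7 in the controls and 28.4, 52.4, 41.1 and 32.4 in the TK-tagged libraries. The value of 98.5 in control-tagged library 3 stood well above the rest. The log2 fold change was -0.48 (SE 0.347, interval -1.24 to 0.27, FDR 0.710). Without control-tagged library 3 it was -0.02, and that of Hba-a1 was -0.13.

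Alas2 was highest in the same 3 libraries at a lower level, with 13.6, 31.9, 24.1 and 18.4 normalised CPM in the controls and 16.9, 27.0, 16.3 and 16.6 in the TK-tagged group. TK-tagged libraries 1, 3 and 4 were almost equal and library 2 stood apart above them. The log2 fold change was -0.20 (SE 0.245, interval -0.74 to 0.34, FDR 0.842), and without control-tagged library 2 it was 0.03. Slc4a1 gave 7, 17, 8 and 10 raw counts in the control-tagged and 4, 11, 10 and 3 in the TK-tagged libraries. The 95% exact Poisson interval of the count of 3 ran from 0.619 to 8.77 and that of the count of 17 from 9.90 to 27.2, and these were the lowest and the highest count. At such counts most libraries cannot be ordered. It fell under the filter on low counts (at least 1 CPM in at least 2 libraries), and its means were 0.774 ± 0.332 and 0.583 ± 0.357 normalised CPM (two-sided exact permutation test, p = 0.371, n = 4 each). No difference between the groups in these genes was larger than the spread of the libraries allows for, and the 95% intervals of the tested genes still held TK-tagged levels from 0.423 times the control level (Hba-a2) to 1.26 times (Alas2).

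**Figure D1:**
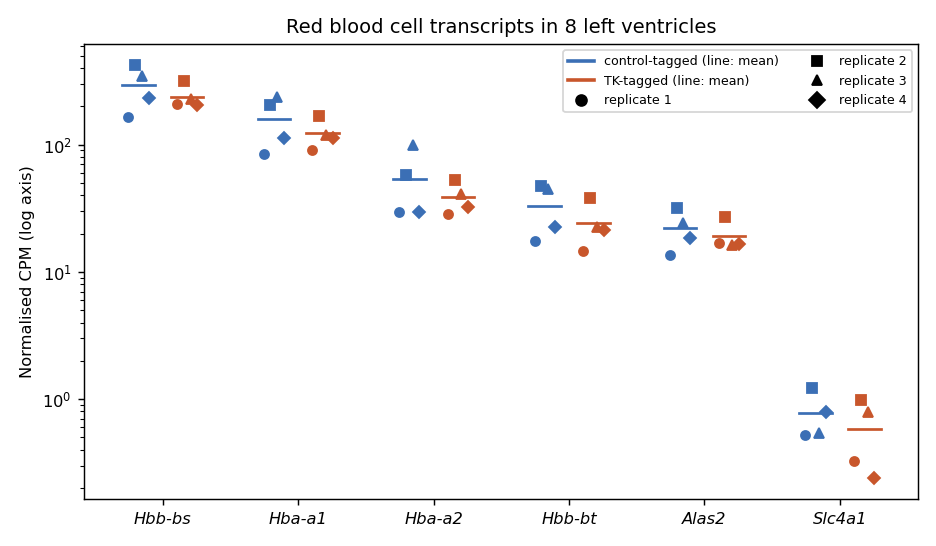
Normalised CPM (log axis) of each of the 6 genes in the 4 control-tagged (blue) and 4 TK-tagged (orange) libraries, with the symbol giving the replicate and the line the group mean. The groups overlap for every gene, and control-tagged replicates 2 and 3 with TK-tagged replicate 2 are the highest for each globin gene and for Alas2.

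Of the 5 genes that passed the filter, 0 of 5 were called, against 1 gene (Flt1) of the 13542 tested (0.00738%). For a call, the FDR had to be below 0.1 and the change 1.5-fold or more either way. At an unadjusted p under 0.05, 0 of 5 passed against 8.96% of all genes tested, and the groups were free of overlap for 0 of 5 against 4.98%. All 5 fold changes were negative, as were 50.3% of those tested. Their median was -0.37 against -0.00119 over all genes. The 5 genes moved together across libraries, as the next values show, so their common sign is not 5 separate measurements.

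**Figure D2:**
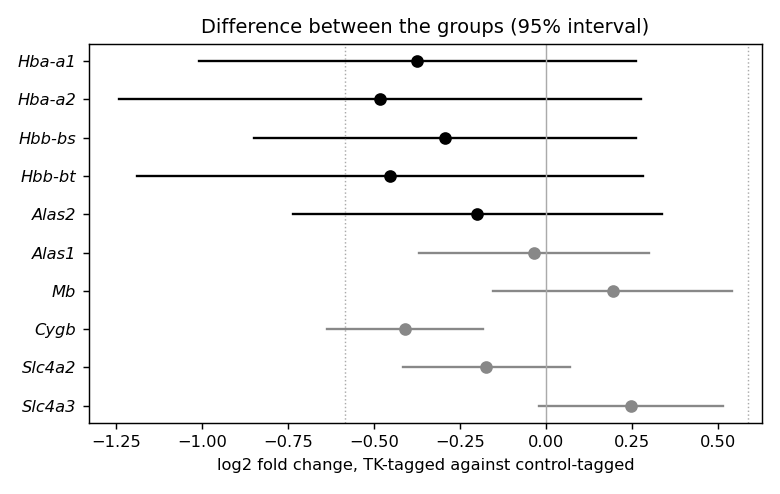
Log2 fold change, TK-tagged against control-tagged, with its 95% interval from the edgeR fit for the 5 red cell genes tested (black) and 5 related genes of other cells (grey). The dotted lines mark the 1.5-fold change needed for a call. The interval of each of the 5 red cell genes includes 0, and only that of Cygb (-0.64 to -0.18) among the related genes does not.

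The genes varied together. Over the 8 libraries, log2 normalised CPM of Hbb-bs and Alas2 gave Pearson's r = 0.973 (exact permutation p = 0.000694, 0.0044 after Benjamini-Hochberg adjustment over 19 relations) and Spearman's rho = 0.905 (p = 0.00456, adjusted 0.0217). These genes lie on different chromosomes and share no stretch of 100 bases. Without the 2 libraries farthest from the median, control-tagged 2 and 3, r was 0.965 (exact permutation p = 0.00972, n = 6). Hbb-bs and Hba-a1, which share no stretch of 100 bases either, gave r = 0.942 (exact permutation p = 0.00141, adjusted 0.00628), rho = 0.857 (p = 0.0107, adjusted 0.0339) and r = 0.937 without those 2 libraries. Within each pair of near-copies r was 0.944 for the alpha genes (exact permutation p = 0.000124, adjusted 0.00236, rho = 0.976) and 0.937 for the beta genes (p = 0.00193, adjusted 0.00628, rho = 0.929), where shared reads may add to the likeness.

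An adjusted p under 0.05 was reached by 9 of the 19 relations for Pearson's r, all of them among the globins and Alas2. The same number was reached with deviations from the group means in place of the levels. With 6 libraries left the 9 kept r between 0.805 and 0.965, and 0 of 19 reached an adjusted p under 0.05. The weakest relation among the 4 globins was that of Hba-a2 with Hbb-bs (r = 0.819, exact permutation p = 0.0108, adjusted 0.0228; rho = 0.81, adjusted 0.0517). Slc4a1 gave r = 0.634 with Hbb-bs (exact permutation p = 0.0945, adjusted 0.147; rho = 0.786, adjusted 0.0531) on its few counts.

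**Figure D3:**
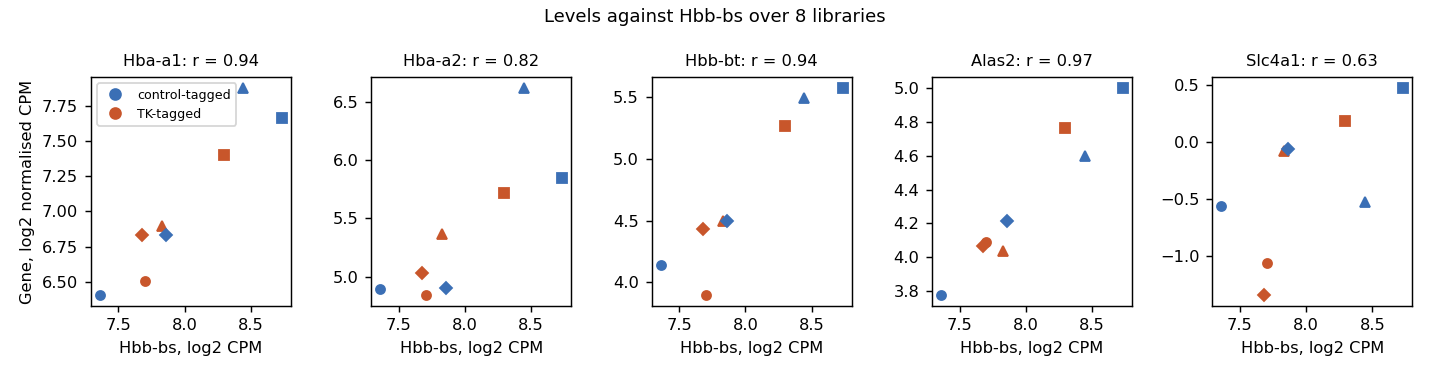
Log2 normalised CPM of the other 5 genes against that of Hbb-bs in the 8 libraries, control-tagged in blue and TK-tagged in orange, with Pearson's r above each panel and the symbols for replicates as in the plot of levels by library. Alas2 lies closest to a line (r = 0.97) and Slc4a1 scatters most (r = 0.63).

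Among the other 13541 genes tested, Alas2 had the highest Pearson's r with Hbb-bs, and Hba-a1 and Hbb-bt ranked 4 and 5. Hba-a2 ranked 43. The remaining genes of the first 10 were Vasn (r = 0.95), Rem1 (0.948), Zfp879 (0.932), Nrxn2 (0.932), Rhod (0.915), 5830454E08Rik (0.915) and Helb (0.914). These r values describe 8 shared libraries, with no test. Per doubling of Hbb-bs the fitted log2 change was 0.89 for Alas2, 1.11 for Hba-a1, 1.12 for Hba-a2 and 1.3 for Hbb-bt. Of the 7 genes that are not globins or Alas2, 5830454E08Rik had a slope of 1.05, in the range of the red cell genes, and the others had 0.30 (Zfp879) to 0.63 (Nrxn2). The level of 5830454E08Rik was low, at 0.524 to 1.52 normalised CPM, close to the filter on low counts. Mb ranked 13082 with r = -0.617.

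The composition of the red cell message was compared by ratios within a library, in which the total amount of red cell message drops out. Alas2 gave 0.0826, 0.0749, 0.0692 and 0.0792 counts per Hbb-bs count in the control-tagged and 0.0812, 0.0859, 0.0716 and 0.0809 in the TK-tagged libraries. It was the steadiest of the 5 ratios, with a coefficient of variation of 7.35% over the 8 libraries, while Hbb-bs itself ranged 2.59-fold. The group means were 0.0765 ± 0.00578 and 0.0799 ± 0.00599 (log2 difference 0.06, SE 0.0781, two-sided exact permutation p = 0.429, 0.771 after adjustment over the 5 ratios).

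The alpha genes together gave 0.628, 0.552, 0.852 and 0.563 counts per beta count in the controls and 0.534, 0.628, 0.642 and 0.646 in the TK-tagged libraries. Control-tagged library 3 was the highest, at 0.852, and the group means were 0.649 ± 0.140 and 0.612 ± 0.0531 (log2 difference -0.06, SE 0.159, exact permutation p = 0.743). The same library had the lowest Hba-a1 to Hba-a2 ratio, 2.40, against 2.85 to 3.83 in the other libraries. Means of that ratio were 3.16 ± 0.651 and 3.20 ± 0.250 (log2 difference 0.04, SE 0.163, exact permutation p = 0.771). Without control-tagged library 3 both ratios changed the sign of their difference, to 0.07 for alpha to beta and -0.08 for Hba-a1 to Hba-a2. Hbb-bt to Hbb-bs was 0.111 ± 0.0134 and 0.0991 ± 0.0214 (exact permutation p = 0.429), and Slc4a1 to Hbb-bs was 0.00277 ± 0.000846 and 0.00233 ± 0.00114 (p = 0.543). For none of the 5 ratios was a difference between the groups larger than the spread of the libraries (adjusted p = 0.771 for each).

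**Figure D4:**
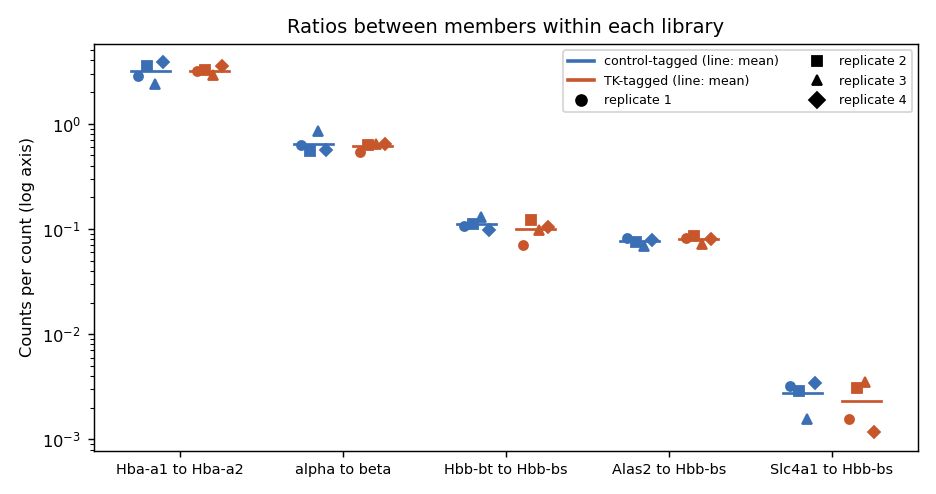
Ratios of raw counts within each library (log axis), control-tagged in blue and TK-tagged in orange, with the symbol giving the replicate and the line the group mean; alpha to beta is Hba-a1 plus Hba-a2 over Hbb-bs plus Hbb-bt. The groups overlap in all 5 ratios, Alas2 to Hbb-bs varies least (7.35%) and Slc4a1 to Hbb-bs most (37.5%).

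Levels of different genes were compared per kilobase of exon. The mean level over the 8 libraries was 346 normalised CPM per kilobase for Hbb-bs, 174 for Hba-a1, 69.3 for Hba-a2, 40.8 for Hbb-bt, 8.56 for Alas2 and 0.139 for Slc4a1. Hbb-bs made up 55.5% of the globin level, Hba-a1 27.4%, Hba-a2 10.8% and Hbb-bt 6.31%. Alas2 thus stood far below the globins it serves, and Slc4a1 was near the limit of detection in every library. Myoglobin, at 10050 per kilobase, was 8.76 to 27.0 times the sum of the 4 globins. Alas1, the form of the same enzyme used outside the erythroid lineage, stood at 55.0 per kilobase, above Alas2. Slc4a3, the anion exchanger of excitable tissue, and Slc4a2, the broadly used one, were at 41.1 and 7.07, both above Slc4a1. The globin levels per kilobase, their shares and the multiples for myoglobin depend on how reads in stretches shared within a pair were counted. Of the stretches of 100 bases, 261 of 600 in Hba-a1 and 116 of 455 in Hba-a2 were not shared.

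**Figure D5:**
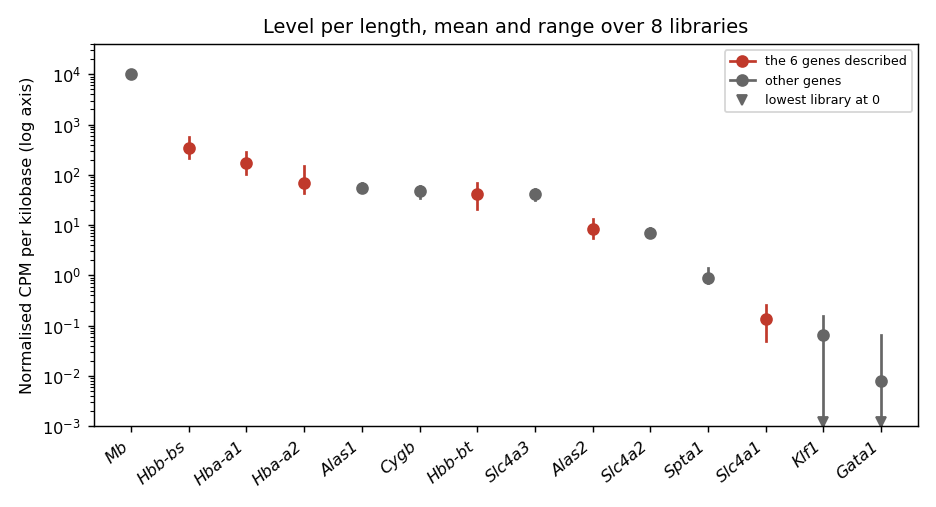
Mean normalised CPM per kilobase of exon over the 8 libraries (log axis), with the line from the lowest to the highest library, for the 6 red cell genes (red) and 8 other genes (grey). Myoglobin (Mb) lies above all globins, and Slc4a1, Klf1 and Gata1 lie at the bottom, the last pair with libraries at 0.

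The myoglobin level was 13990 ± 1264 normalised CPM in the control-tagged and 15990 ± 999 in the TK-tagged libraries (log2 fold change 0.19, SE 0.159, FDR 0.746, edgeR). Alas1 (-0.04, FDR 0.960), Slc4a2 (-0.17, FDR 0.674) and Slc4a3 (0.25, FDR 0.588) were not called either. Cytoglobin, Cygb, the globin of fibroblast-like cells, measured 118, 130.1, 138 and 114.7 in the control-tagged and 103, 90.6, 81.7 and 102 in the TK-tagged libraries. Its groups did not overlap (4.98% of all genes tested did not), and its log2 fold change was -0.41 (SE 0.104, unadjusted p = 0.002, FDR 0.442), which missed the call.

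Several defining markers of red cell precursors were at or near 0. Of the 8 other globin genes, 6 had no count in any library, among them the embryonic Hba-x, Hbb-y and Hbb-bh1, and Hbq1a and Hbq1b had at most 2 counts. Gfi1b, a repressor needed for erythroid and platelet development, had 0 counts, Gata1, the master regulator of erythroid genes, had 0 to 2, and Klf1, the activator of adult beta globin, had 0 to 3. The red cell surface proteins Rhag and Kel had 0 to 1 counts each. The cytoplasmic enzyme Car1 and the ubiquitin ligase Trim58 of late erythroid cells had none.

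Other genes known from red cells differed in how they followed the globins. In the red cell membrane list, 8 of 16 genes with a row passed the filter, 5 with a higher and 3 with a lower level in the TK-tagged group (median log2 fold change 0.05), and 0 were called. The membrane skeleton genes Ank1 and Sptb ranked 12120 and 9387 of 13541 by likeness to Hbb-bs, with r of -0.452 and -0.202, and over the 8 membrane genes r ran from -0.655 (Rhd) to 0.551 (Gypc). The water channel Aqp1, which endothelial cells use too, was the list's most abundant gene and its only one at an unadjusted p under 0.05 (1133 ± 283 against 699 ± 240 normalised CPM, log2 fold change -0.70, SE 0.235, FDR 0.468). Its r with Hbb-bs was 0.158. Of all genes tested, 8.96% had an unadjusted p under 0.05.

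All 10 genes of the haem synthesis list passed the filter, from Alad, the enzyme after Alas2, to the mitochondrial iron carrier Slc25a37. All 10 had a positive log2 fold change, opposite to Alas2, with a median of 0.06, and 0 reached an unadjusted p under 0.05. Their r with Hbb-bs ran from -0.577 (Slc25a38) to 0.274 (Abcb10). Of the other genes of red cell cytoplasm, 9 of 13 with a row passed, 3 higher and 6 lower, with 0 called. Their r with Hbb-bs ran from -0.578 for the peroxide-removing Prdx2 to 0.777 for the carbonic anhydrase Car2 (rank 82), with Mkrn1 at 0.767 (rank 92) and Bpgm at 0.554. Of the regulators 7 of 11 passed, 3 higher and 4 lower, with 0 called and 0 at an unadjusted p under 0.05. Those that passed include Tfrc, the transferrin receptor used by many cells, at 54.4 to 137 normalised CPM, Lmo2 at 20.1 to 26.4, Tal1 at 8.17 to 12.8 and the erythropoietin receptor Epor at 1.06 to 1.91. Zfpm1, the partner of Gata factors, was the 1 regulator of the 7 whose groups did not overlap (37.2 ± 1.44 against 34.0 ± 0.842). Its log2 fold change was -0.13 (FDR 0.663), and 4.98% of all genes tested did not overlap.

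Genes that take up haemoglobin, haem and iron were read beside them. Of 10 genes, 9 passed the filter, 4 higher and 5 lower, and 0 were called. Slc40a1, the iron exporter ferroportin, measured 14.45, 15.03, 13.18 and 15.03 normalised CPM in the control-tagged and 18.53, 26.01, 19.51 and 15.06 in the TK-tagged libraries. These did not overlap, by a narrow margin (log2 fold change 0.45, SE 0.153, FDR 0.468), as was so for 4.98% of all genes tested. Cd163, the haemoglobin scavenger receptor of macrophages, had a log2 fold change of -0.68 (FDR 0.538). For Lrp1, the receptor for haem bound to hemopexin, it was -0.36 (FDR 0.521). With Slc40a1 they were the 3 of 9 tested genes at an unadjusted p under 0.05, against 8.96% of all genes tested. The ferritin chain Fth1 was the most abundant of the list, with a log2 fold change of 0.01, and Hmox1, which breaks haem down, had -0.19 (FDR 0.781).

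Blood carries platelets and leukocytes too, and their genes were low. Of 12 platelet genes 3 passed the filter, 1 higher and 2 lower, with Pf4, the platelet chemokine, the most abundant. The summed platelet level ranged from 15.4 to 21.2 normalised CPM in the control-tagged and from 11.2 to 17.9 in the TK-tagged libraries. Of 21 blood leukocyte genes 14 passed, 8 higher and 6 lower, and the summed level was 43.34 to 69.9 and 44.95 to 68.58. No gene of either list was called or reached an unadjusted p under 0.05. Over the 8 libraries, Hbb-bs gave r = 0.518 with the platelet score (exact permutation p = 0.189, adjusted 0.22; rho = 0.524, adjusted 0.233) and r = 0.556 with the leukocyte score (exact permutation p = 0.153, adjusted 0.208; rho = 0.452, adjusted 0.299), and without the 2 farthest libraries r was 0.103 and 0.105. A score here is the log2 of the summed normalised CPM of the list's genes, so the most abundant genes weigh most.

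The tissue itself was cardiac muscle with its vessels. All 12 cardiomyocyte markers passed the filter, with 8 higher and 4 lower, and their summed level was 86510 to 134600 normalised CPM in the control-tagged and 110100 to 136000 in the TK-tagged libraries. Of the 10 endothelial markers 9 were lower in the TK-tagged group, 5 of them at an unadjusted p under 0.05 (Pecam1, Cdh5, Tie1, Vwf and Esam) and 0 called, and their summed level was 1633 to 2022 against 1463 to 1608. Over all genes tested, 8.96% had an unadjusted p under 0.05. Whether the endothelial markers have a part in the globin values was not tested. The relation of Hbb-bs to the endothelial score over the 8 libraries was r = 0.539 (exact permutation p = 0.173, adjusted 0.22; rho = 0.405, adjusted 0.345) and -0.325 without the 2 farthest libraries. With the cardiomyocyte score it was -0.335 (exact permutation p = 0.43, adjusted 0.43; rho = 0.0238, adjusted 0.977) and 0.185 without them. With the Hbb-bs level of each library as a covariate of the fit, 1 gene was called, which was Flt1 again (log2 fold change 1.16, FDR 0.0451).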

How the data were processed

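Raw counts per gene, deposited by the authors as a table of 8 libraries, were used. Per the labels and the study's methods, reads were trimmed with Trim Galore 0.4.4, aligned with STAR 2.5.4b to GRCm38 and counted with featureCounts; the methods name a stranded kit and a limit on the places a read may align to, but how the counting treated strand and multiply mapped reads is not given in the sources used here. The labels name rRNA depletion and the methods poly-A selection, which could change globin and other counts. The libraries were grouped by genotype tag.

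Genes with at least 1 CPM in at least 2 libraries (13542 of 46040) were tested with edgeR 4.0.16 (R 4.3.3; TMM normalisation, quasi-likelihood F-test, Benjamini-Hochberg FDR over all genes). The SE is the absolute log2 fold change over the root of F. Normalised CPM used TMM library sizes. Ratios and relations between genes used exact permutation tests (scipy 1.17.1), two-sided. In comparisons of the groups, 4 against 4 libraries allow no p under 0.0286. That limit does not hold for the relations, which permute the order of the 8 libraries. P-values set a group difference or a relation against the spread between these libraries. No 2 libraries of the same group agreed within sampling noise; pairs between groups were not compared. Scripts were tested on simulated data.

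The 6 genes and all gene lists were chosen with earlier results of these data known. Named are the 6 genes, their relatives Mb, Alas1, Slc4a2 and Slc4a3, Flt1, the 10 genes most like Hbb-bs, and list genes that had an unadjusted p under 0.05, were the most abundant or were defining markers at 0. Others named beside them were chosen after their values were seen. Of the list genes, 3 had no row and were not analysed here, and some others are counted in their list but not reported here by name. Promoter sequences are from RefSeq, gene models and transcripts from GENCODE M21. Alternatives were a likelihood ratio test, DESeq2 1.42.0, other normalisations and filters, a replicate block and leaving out each library.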

Additional observations from a re-analysis of the deposited data

Results flagged for a closer look

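Of 22 sets of 4 libraries checked for one far from the others by Dixon's test, 2 stood out, and chance alone marks about 1 in 20. Alas2 in TK-tagged library 2 was 27.0 normalised CPM, against 16.3 to 16.9 in the other 3 libraries of the group. That library was also the highest of its group for each globin gene. The alpha to beta globin ratio of TK-tagged library 1 was 0.534 counts per count, against 0.628 to 0.646 in the other 3.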

How the results depend on the processing

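None of the 5 genes that passed the filter was called under any alternative, nor was Slc4a1 in the fit with no filter on low counts (FDR 0.798). For Slc4a1 the other alternatives were permutation tests, which cannot give a call. Of 98 alternative values for the 6 genes, 97 kept the negative sign. The exception was Alas2, at 0.0336 without control-tagged replicate 2 (range on leaving out each library -0.41 to 0.0336). Single libraries moved the other log2 fold changes by more than 1.5 times: Hba-a2 ran from -0.69 (without control-tagged replicate 1) to -0.02 (without 3), Hba-a1 from -0.59 (without 1) to -0.13 (without 3), Hbb-bs from -0.49 (without 1) to -0.06 (without 2), Hbb-bt from -0.77 (without TK-tagged replicate 2) to -0.23 (without control-tagged 2) and Slc4a1 from -0.66 (without TK-tagged 2) to -0.15 (without TK-tagged 4). The number of genes called was 1 in the main test, 53 with the likelihood ratio test, 32 with DESeq2, 23 with no filter on low counts and 1 to 3 on leaving out each library (2 without control-tagged replicate 1, 3 without replicate 2 or 4). The log2 difference in the Hba-a1 to Hba-a2 ratio ran from -0.0823 without control-tagged replicate 3 to 0.14, and was -0.00282 without TK-tagged replicate 4. That in the alpha to beta ratio ran from -0.13 to 0.0746 without control-tagged replicate 3, and was 0.000479 without TK-tagged replicate 1. Without the 2 libraries farthest from the median, 0 of 19 relations had an adjusted p under 0.05, with 6 libraries left, and the relations of Hbb-bs to the endothelial and cardiomyocyte scores changed sign, to -0.325 and 0.185. For the other changes the cause was not tested. Deviations of same-numbered libraries of the 2 groups gave r of -0.03 (replicate 1), 0.03 (2), 0.34 (3) and -0.06 (4). That of replicate 3 was the highest of all pairs across the groups, so these values do not settle whether the numbers pair libraries. The main test did not pair them. With a replicate block 1 gene was called. The log2 fold changes were then -0.29 for Hba-a1, -0.34 for Hba-a2, -0.22 for Hbb-bs, -0.41 for Hbb-bt (edgeR quasi-likelihood test, unadjusted p = 0.0182, FDR 0.479) and -0.17 for Alas2. The low counts of Slc4a1 limit what can be said of it.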
